A study of Mus musculus with 6 samples.

Results

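The MHC class II presentation pathway was examined gene by gene in oral squamous cell carcinomas of mice, through 10 genes chosen by symbol out of the 770 genes of 1 deposited table. The members are H2-Aa, H2-Ab1, H2-Eb1, H2-DMa, H2-DMb1, H2-DMb2, H2-Ob, Cd74, Ciita and Ctss. All 10 were rows of that table, H2-DMa under the spelling H2-Dma. Tumours had been induced with the chemical carcinogen 4NQO, and 2 groups of 3 tumour samples were compared, vehicle replicates 1 to 3 and agonistic anti-CD40 replicates 1 to 3. Both groups thus share the carcinogen-induced tumour, and the treatment was the labelled difference between them. The antibody is a stimulating one against CD40, a receptor of antigen-presenting cells. RNA came from formalin-fixed, paraffin-embedded primary tumours, so each sample is a mixture of carcinoma cells, stroma and leukocytes. Mouse strain background, age, antibody clone, dose and time were not given in the sources used here. Whether they are separate animals is not stated in the labels, and every p-value below therefore reflects only how much these samples differ, for technical reasons included.

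MHC class II molecules display peptides from engulfed material to helper T cells, and are carried mainly by dendritic cells, macrophages and B cells, and by other cells after exposure to interferon gamma. Their α and β chains assemble with the invariant chain, encoded by Cd74, which is cut down by proteases such as cathepsin S (Ctss) until a short fragment is left in the groove. H2-DM, a heterodimer of H2-DMa with an H2-DMb chain, exchanges that fragment for peptide, and H2-O, to which H2-Ob contributes the β chain, restrains H2-DM. Ciita, the class II transactivator, sets the transcription of most of these genes by joining factors bound to the X and Y boxes of their promoters.

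RefSeq promoter windows of assembly GRCm38.p6, each 250 bases before to 50 after a start, were found for 7 of the 10 members (8 windows, 2 of them for H2-DMa), but for H2-Ab1, Cd74 and Ciita no window was matched. The stretches shown here are those in which an X box motif was followed by a Y box, the sequence layout through which Ciita acts. Capitals mark the X motif and, after it, the Y box. Each is read 5′ to 3′ on the strand of its gene, and all lie upstream of the start.
H2-Aa, chr17:34287861-34287908, minus strand: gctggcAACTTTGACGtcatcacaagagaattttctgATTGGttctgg
H2-Eb1, chr17:34305772-34305818, plus strand: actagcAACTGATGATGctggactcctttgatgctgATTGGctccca
H2-DMb1, chr17:34153093-34153140, plus strand: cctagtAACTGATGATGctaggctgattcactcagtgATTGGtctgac
H2-DMb2, chr17:34145122-34145169, plus strand: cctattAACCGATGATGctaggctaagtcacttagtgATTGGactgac
H2-Ob, chr17:34238814-34238858, plus strand: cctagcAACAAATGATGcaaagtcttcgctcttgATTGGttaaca

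The Y box was searched as ATTGG and the X motif as AACNNNTGANG or AACNNTGANG, on both strands, with 10 to 30 bases between the end of X and the start of Y on the same strand. A window with either X spelling counted once, and X and Y could not overlap. These spellings were settled after the members' windows had been read, so the counts describe the windows and test nothing. Of all 32851 RefSeq windows of 300 bases, 37.4% held ATTGG, 5.77% held an X motif and 73 (0.222%) held the ordered pair. The pair was present in 5 of the 8 members' windows. The spacer was 21 bases in H2-Aa, 19 in H2-Eb1, 20 in both H2-DMb genes and 17 in H2-Ob, and the X motif began 79, 89, 92, 121 and 85 bases before the start in H2-Aa, H2-Eb1, H2-DMb1, H2-DMb2 and H2-Ob. The printed stretches of the paralogs H2-DMb1 and H2-DMb2 shared 42 of 48 bases at the same position. The Ctss window and the 2 H2-DMa windows held no such pair in these spellings.

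**Figure D1:**
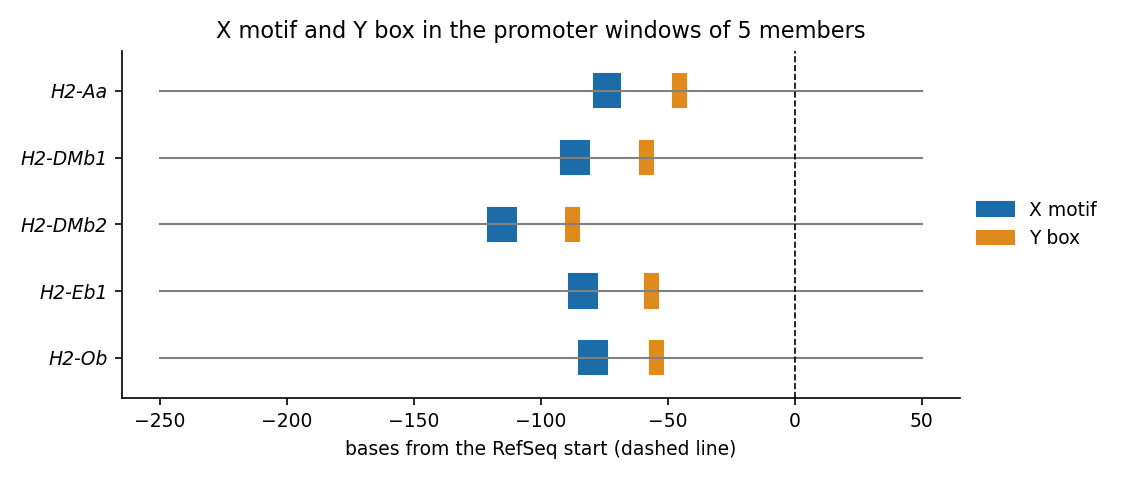
Position of the X motif and of the Y box in the RefSeq promoter windows of 5 members, in bases from the annotated start. In each window the X motif lies farther from the start than the Y box, with 17 to 21 bases between them.

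All 10 members had a lower mean in anti-CD40 than in vehicle tumours, but the groups overlapped for every member and none passed the test. The fit, limma on the deposited log2 normalized counts of all genes, called 0 of 10 members and 0 of 770 genes (0%) at a Benjamini-Hochberg adjusted p of 0.05, and the adjusted p was 0.974 for each member. At an unadjusted p under 0.05 it named 0 members and 25 genes (3.25%). Differences, given throughout as anti-CD40 minus vehicle on the log2 scale, ran from −0.78 for Ciita to −0.13 for H2-DMa, with a median of −0.27. Over all genes the median difference was 0.038, and 350 of 770 genes (45.5%) were lower and 420 (54.5%) higher in the mean. Groups did not overlap for 0 members, beside 79 genes (10.3%) of the whole table. Without vehicle 1 the members divided into 5 lower and 5 higher, with a median difference of −0.023.

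The libraries held between 333400 and 578598 recovered whole counts over the 770 genes, the most in vehicle 1 and the fewest in anti-CD40 3. The 8 negative controls set the background limit of a library, their mean plus 2 SD, at 24.7 to 26.6 counts. All 10 members exceeded it in all 6 libraries, as did 523 genes in total. The means of 20 housekeeping genes lay between 11.01 and 11.11 in all libraries. Whether the deposited values had been scaled to such genes was not given. Library medians over the 770 genes were less even, from 7.68 in vehicle 3 to 8.19 in anti-CD40 2. Of 11 squamous epithelium and carcinoma markers listed, 5 were measured. Epcam, Cdh1 and Egfr were above background in all 6 libraries (9.73 to 12.51), and Muc1 (6.02 to 8.27) and Cd44 (6.37 to 6.87) in 5 of 6. Epcam was 10.16, 11.52 and 11.40 in vehicle 1 to 3 and 11.34, 11.02 and 10.38 in anti-CD40 1 to 3, lowest in vehicle 1. Muc1 was 8.27 in vehicle 1 and 8.23 in anti-CD40 3, but 6.02 to 6.49 in the other libraries. Cdh1 (11.94 to 12.51) and Egfr (9.73 to 10.25) varied less.

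The chains of the class II molecules themselves gave strong signals. H2-Aa, the α chain of I-A, was 13.86, 12.54 and 12.75 with vehicle and 12.69, 12.96 and 13.03 with anti-CD40, in the order of replicates 1 to 3 here and below. Vehicle 1 stood above all other libraries, vehicle 2 lay below every anti-CD40 library, and vehicle 3 lay among them. The means were 13.05 ± 0.71 and 12.89 ± 0.18 (SD, n = 3 per group), a difference of −0.16 with a 95% confidence interval from −1.02 to 0.71, and 0.25 without vehicle 1.

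H2-Ab1, the β chain of I-A, was 13.66, 12.75 and 12.67 with vehicle and 12.29, 12.73 and 12.88 with anti-CD40. Again vehicle 1 was highest, and anti-CD40 1 was lowest. The difference of −0.39 (SE 0.33, interval −1.17 to 0.38) was −0.080 without vehicle 1 and −0.23 without anti-CD40 1. H2-Eb1, the β chain of I-E, was 12.45, 11.88 and 11.78 beside 11.31, 11.94 and 12.03. Its libraries fell in nearly the same order as those of H2-Ab1, and its difference of −0.28 (SE 0.30) was −0.071 without vehicle 1 and −0.054 without anti-CD40 1. H2-Ea-ps, the panel's row for the E α chain pseudogene, was at or below background in every library, between 4.55 and 5.23.

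Cd74, the invariant chain, was 14.68, 13.99 and 13.60 with vehicle and 13.61, 13.88 and 14.00 with anti-CD40. Vehicle 1 was highest, and the other 5 libraries lay within 13.60 to 14.00. The means of 14.09 ± 0.54 and 13.83 ± 0.20 differed by −0.26 (SE 0.31), and by 0.035 without vehicle 1. Ctss, the protease that trims the invariant chain, was 11.53, 10.60 and 10.34 beside 10.39, 10.88 and 10.51. Here too vehicle 1 was highest, with anti-CD40 2 next. Its difference of −0.23 (SE 0.35) was 0.12 without vehicle 1.

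**Figure D2:**
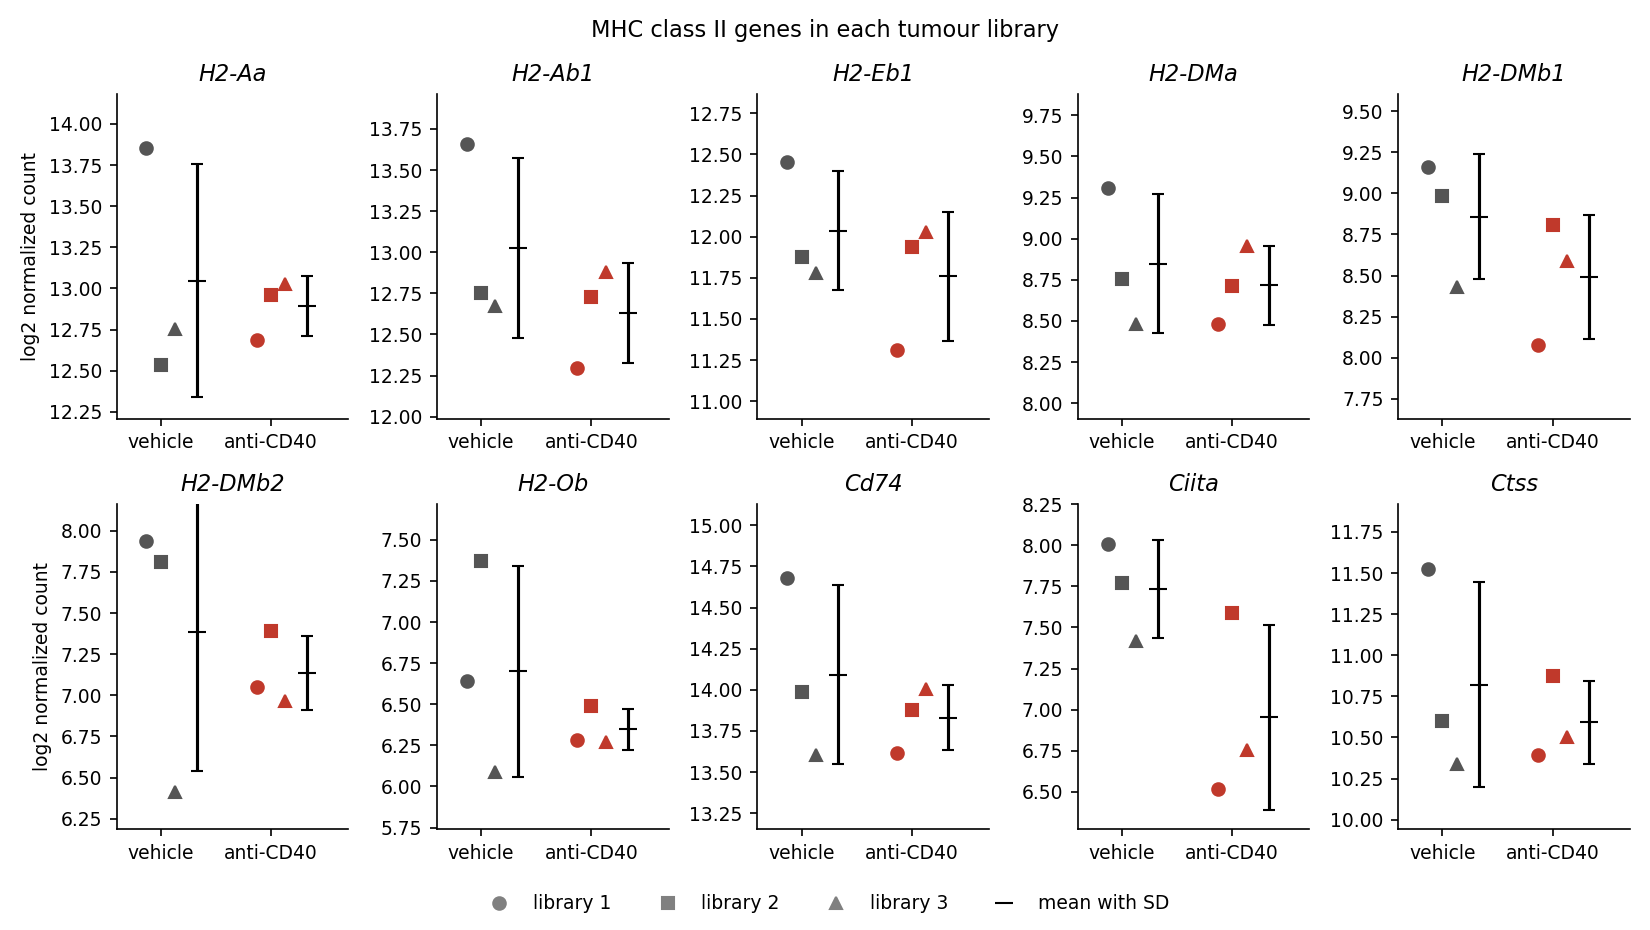
Log2 normalized count of the 10 members in each of 3 vehicle and 3 anti-CD40 libraries, with the group mean and SD beside the points. All panels span the same height on the log2 axis, the groups overlap in every panel, and vehicle 1 is the highest point in 9 of 10.

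Genes of peptide exchange lay several log2 units below the chains, though values of different probes were not compared as amounts. H2-DMa was 9.31, 8.75 and 8.48 with vehicle and 8.48, 8.71 and 8.96 with anti-CD40. The values of the 2 groups interleave below vehicle 1, and the difference was −0.13 (SE 0.28), or 0.10 without vehicle 1. H2-DMb1, a β chain partner of H2-DMa, was 9.16, 8.99 and 8.43 beside 8.08, 8.81 and 8.59. Vehicle 1 and 2 were above all anti-CD40 libraries, whereas vehicle 3 was below anti-CD40 2 and 3. The difference of −0.37 (SE 0.30, interval −1.07 to 0.34) was −0.22 without vehicle 1, −0.16 without anti-CD40 1, −0.58 without vehicle 3 and −0.52 without anti-CD40 2.

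H2-DMb2, the second β chain gene, was 7.94, 7.81 and 6.41 beside 7.05, 7.39 and 6.96. Vehicle tumours held both the highest values and the lowest one, so its SD was 0.84 in vehicle and 0.23 in anti-CD40. The difference was −0.25 (SE 0.42), −0.039 without vehicle 2, −0.74 without vehicle 3 and 0.024 without vehicle 1. The H2-DMb genes are close copies, and whether each probe reads only its own gene was not tested. Within a library, H2-DMb2 minus H2-DMb1 was −1.22, −1.17 and −2.01 with vehicle and −1.02, −1.42 and −1.62 with anti-CD40, so the pair did not keep a fixed distance.

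H2-Ob, the β chain of the H2-DM inhibitor, had the fewest counts of the members. Its values were 6.64, 7.37 and 6.09 with vehicle and 6.28, 6.49 and 6.27 with anti-CD40, from 52, 49 and 37 counts and 32, 35 and 26 counts. It was the 1 member highest in vehicle 2, where fewer counts than in vehicle 1 were multiplied by a larger library factor (3.28 beside 1.84). In anti-CD40 3 its 26 counts lay just above the limit of 25.4, and counting error alone gives an SE of 0.28 log2 there. The difference of −0.35 (SE 0.34) was −0.018 without vehicle 2, −0.66 without vehicle 3 and −0.73 with the mean of the negative controls subtracted.

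Ciita had the largest difference of the members and the lowest unadjusted p, 0.0509. It was 8.01, 7.77 and 7.42 with vehicle and 6.52, 7.59 and 6.76 with anti-CD40. Anti-CD40 1 and 3 lay below every vehicle library, and anti-CD40 2 lay between vehicle 3 and vehicle 2. The means of 7.73 ± 0.30 and 6.95 ± 0.56 differed by −0.78 (SE 0.33, interval −1.56 to 0.0037), a fold of 0.583, and limma's adjusted p was 0.974. The counts behind these values were 138, 65 and 97 and 38, 77 and 37, with counting SEs from 0.12 to 0.24 log2. The difference of Ciita stayed negative with any 1 library left out, from −1.10 without anti-CD40 2 to −0.56 without anti-CD40 1, and was −0.64 without vehicle 1. With the mean of the negative controls subtracted it was −1.12.

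**Figure D3:**
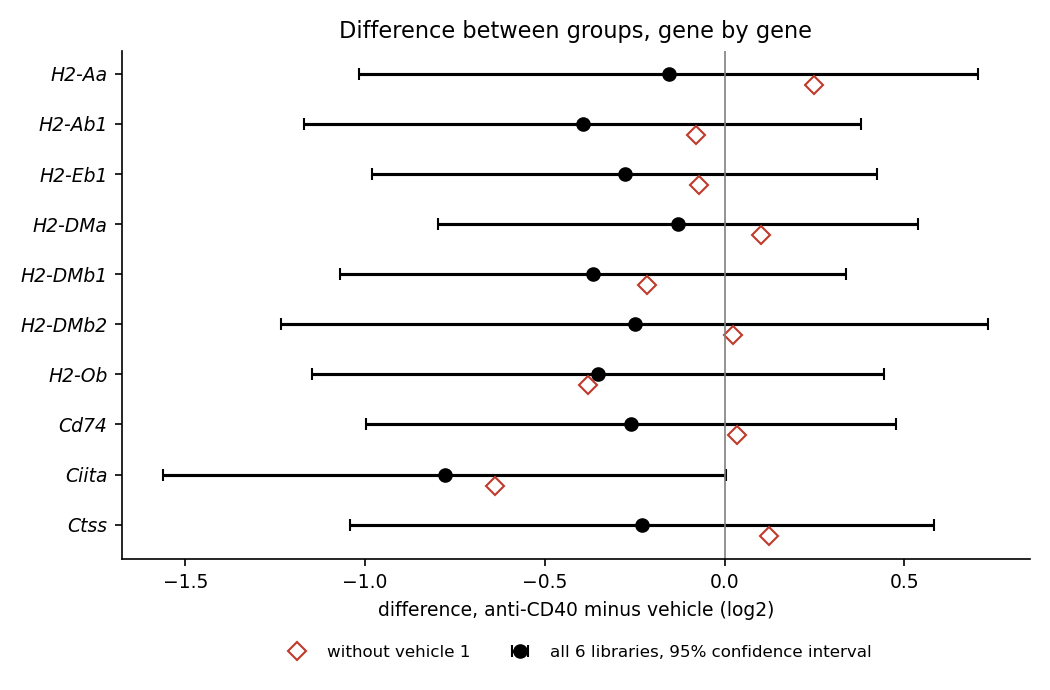
Difference between groups (anti-CD40 minus vehicle, log2) for each member, with its 95% confidence interval from limma on all 6 libraries and, as open diamonds, the difference without vehicle 1. Every interval includes 0, and without vehicle 1 the differences of H2-Aa, H2-DMa, H2-DMb2, Cd74 and Ctss lie above 0.

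Over the 6 libraries the members spanned ranges from 0.83 (H2-DMa) to 1.52 (H2-DMb2). Vehicle 1 held the highest value of 9 of 10 members, beside 22.3% of all 770 genes, and exceeded the mean of vehicle 2 and 3 by a median of 0.76 log2 over the members and 0.16 over all genes. Vehicle 3 was lowest of its group in 9 of 10 members (64.3% of all genes), and anti-CD40 1 in 8 of 10 (39.6%). The median SD of the members was 0.55 in vehicle and 0.25 in anti-CD40, beside 0.38 and 0.30 over all genes. As a measure free of the library factors, the members' share of all recovered counts was 6.06% in vehicle 1 (exact binomial 95% interval 5.99% to 6.12%), 3.06% (3.01% to 3.12%) in vehicle 2 and 3.77% (3.72% to 3.83%) in vehicle 3. It was 2.54% (2.50% to 2.58%), 3.39% (3.34% to 3.44%) and 4.19% (4.12% to 4.26%) in anti-CD40 1, 2 and 3. The intervals cover counting error only. By this share, too, vehicle 1 was highest and anti-CD40 1 lowest, and Cd74, H2-Aa and H2-Ab1 supply most of the counts in it.

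Within the anti-CD40 group the members divided into 2 equal sets. H2-Aa, H2-Ab1, H2-Eb1, H2-DMa and Cd74 were highest in anti-CD40 3, whereas H2-DMb1, H2-DMb2, H2-Ob, Ciita and Ctss were highest in anti-CD40 2. Of the second set, H2-DMb1, H2-DMb2 and Ciita were also nearly as high in vehicle 2 as in vehicle 1. H2-Ob was higher in vehicle 2 than in vehicle 1 (7.37 beside 6.64), and Ctss was lower (10.60 beside 11.53). These sets were formed after the values were seen and were not tested.

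**Figure D4:**
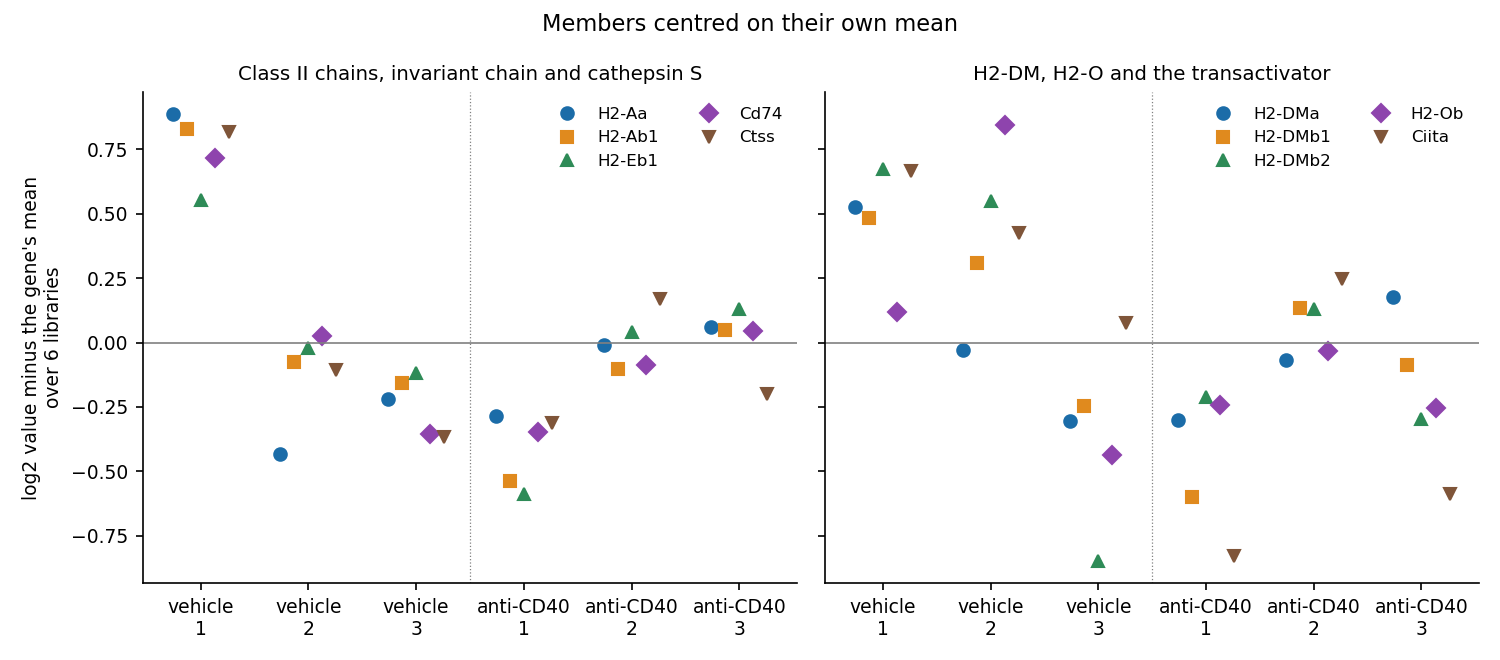
Each member's log2 value minus its own mean over the 6 libraries, with the chains, Cd74 and Ctss on the left and the H2-DM genes, H2-Ob and Ciita on the right. On the left all 5 genes peak in vehicle 1, and on the right H2-Ob peaks in vehicle 2 and H2-DMb2 spans from 0.67 in vehicle 1 to −0.85 in vehicle 3.

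Distances between members inside a library do not depend on the library factor, apart from the small offset added before the logarithm. Cd74 minus the mean of H2-Aa, H2-Ab1 and H2-Eb1 was 1.36, 1.60 and 1.20 in vehicle and 1.52, 1.33 and 1.36 in anti-CD40 libraries, with group means of 1.39 ± 0.20 and 1.40 ± 0.10. These group means differed by 0.017, well under the spread between libraries. H2-Aa minus H2-Ab1 was 0.20, −0.22 and 0.080 beside 0.39, 0.24 and 0.15, and the group means of 0.020 ± 0.21 and 0.26 ± 0.12 came from overlapping libraries. For the mean of H2-DMa and H2-DMb1 minus that of the 3 chains, the group means were −3.85 ± 0.30 with vehicle and −3.82 ± 0.046 with anti-CD40.

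Ciita was also set against the genes it regulates. Ciita minus the mean of H2-Aa, H2-Ab1, H2-Eb1 and Cd74 was −5.65, −5.02 and −5.28 with vehicle and −5.96, −5.29 and −6.23 with anti-CD40. Anti-CD40 1 and 3 were lowest and anti-CD40 2 lay among the vehicle libraries, for group means of −5.32 ± 0.32 and −5.83 ± 0.49. Over the 6 libraries this distance had a range of 1.21, beside 0.40 for that of Cd74 to the chains and 0.50 for that of Ctss to Cd74. Other members with few counts had similar ranges, 1.09 for H2-Ob minus the mean of H2-DMa and H2-DMb1 and 0.99 for H2-DMb2 minus H2-DMb1.

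Likeness to the class II pattern was measured as the root mean square distance, over the 6 libraries, between a gene's centred log2 values and the centred mean of H2-Aa, H2-Ab1, H2-Eb1 and Cd74. H2-DMa, which is not part of that mean, had a distance of 0.13, and 1 of the 513 other genes above background in all 6 libraries was nearer. Ctss had 0.16, with 8 other genes nearer, and H2-DMb1 had 0.24, with 33 nearer. Ciita, H2-DMb2 and H2-Ob were at 0.42, 0.42 and 0.50, beside a median of 0.43 for the other genes. The 5 nearest genes outside the members were Tnfsf10 (0.12), which encodes the death ligand TRAIL, Il34 (0.15), a ligand of the Csf1r receptor, the immunoproteasome gene Psmb10 (0.15), the interferon-induced gene Ifit2 (0.16) and the peptide transporter gene Tap2 (0.16). Each was highest in vehicle 1, which follows from their selection, since the pattern they were matched to peaks there. Tnfsf10, for example, was 8.72, 8.13 and 7.96 with vehicle and 7.76, 8.03 and 7.99 with anti-CD40.

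Interferon gamma is a main inducer of Ciita, acting through Janus kinases and Irf1. Of 13 listed genes of this input 11 were measured, and 0 passed the adjusted threshold: 8 were lower and 3 higher in the mean, with a median difference of −0.26. Ifng, the cytokine gene itself, was at or below background in every library. Irf1 was 10.46, 9.59 and 9.41 beside 9.17, 9.21 and 8.98, with every anti-CD40 library below every vehicle library (27 of 770 genes, 3.51%, did so) and a limma adjusted p of 0.974 for its difference of −0.70.

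Of 27 listed partners in antigen processing and class II recognition 10 were measured, and 0 passed the adjusted threshold, with 6 higher and 4 lower and a median difference of 0.043. The lysosomal protease gene Ctsl, the relative of Ctss that trims the invariant chain in thymic epithelium, was 10.42, 10.32 and 9.95 with vehicle and 10.84, 10.47 and 10.44 with anti-CD40, each of the latter above each of the former (52 of 770 genes, 6.75%, did so). Its difference of 0.36 had an adjusted p of 0.974 with limma. Cd4 and Lag3, whose products bind class II molecules on the T cell side, differed by −0.22 and −0.068. Both were near background, with values from 5.94 to 6.70.

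Markers of the cells that carry class II molecules moved between libraries too. In bulk tumour RNA, fewer cells of a type and less RNA per cell cannot be told apart. The mean of H2-Aa, H2-Ab1, H2-Eb1 and Cd74 was 13.66, 12.79 and 12.70 with vehicle and 12.48, 12.87 and 12.99 with anti-CD40. The dendritic cell list (8 of 13 measured, 3 above background in all libraries, Xcr1 and Lamp3 in none) had means of 6.99, 7.01 and 6.58 beside 6.37, 6.74 and 6.46, and all 8 members had negative differences, with 0 called. Vehicle 1 and 2 were highest, at nearly the same level, and anti-CD40 1 was lowest. Xcr1 and Lamp3 were higher in vehicle 2 (6.38 and 5.46) than in vehicle 1 (5.55 and 4.63), though not above background. The other genes of the list went both ways between these libraries. The macrophage and monocyte list (12 of 14 measured, 10 above background in all libraries) had means of 8.95, 8.93 and 8.24 beside 8.83, 9.12 and 8.89, with 10 genes higher, 2 lower and 0 called. Its highest library was anti-CD40 2 and its lowest vehicle 3.

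The B cell list (11 of 11 measured, 2 above background in all libraries, Cd79a, Cd22, Cr2 and Fcer2a in none) had means of 5.87, 7.23 and 5.62 beside 6.54, 6.63 and 5.82. It was highest in vehicle 2, where H2-Ob was highest too. In anti-CD40 1 and 2, however, the list was above its vehicle 1 value and H2-Ob was below its own. The pan-B cell gene Ms4a1 was 5.16, 7.89 and 5.40 beside 6.95, 7.14 and 5.14. It was at or below background in vehicle 1, vehicle 3 and anti-CD40 3. In the mean, 6 genes of the list were higher and 5 lower, with 0 called. H2-Ob is expressed mainly by B cells and some dendritic cells. The T cell list (10 of 11 measured, 4 above background in all libraries, Cd2 and Cd8b1 in none) had means of 6.59, 6.56 and 6.12 beside 5.77, 6.60 and 6.13, with 10 genes lower and 0 called. None of these 4 list means had the profile of the mean of H2-Aa, H2-Ab1, H2-Eb1 and Cd74. In that mean vehicle 1 exceeded vehicle 2 by 0.87. The squamous epithelium and carcinoma list had means of 9.55, 9.31 and 9.27 beside 9.21, 9.23 and 9.44. Like that of the class II genes, its mean was highest in vehicle 1, next in anti-CD40 3 and lowest in anti-CD40 1. Its genes differed, with Epcam lowest in vehicle 1 and Muc1 highest there. Each list mean also takes in genes that were not above background in every library. Single markers went both ways: Csf1r was 9.96 in vehicle 1 and 9.33 in vehicle 2, and Cd68 was 9.30 and 10.07. The part of these cell types in the class II values was not tested.

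**Figure D5:**
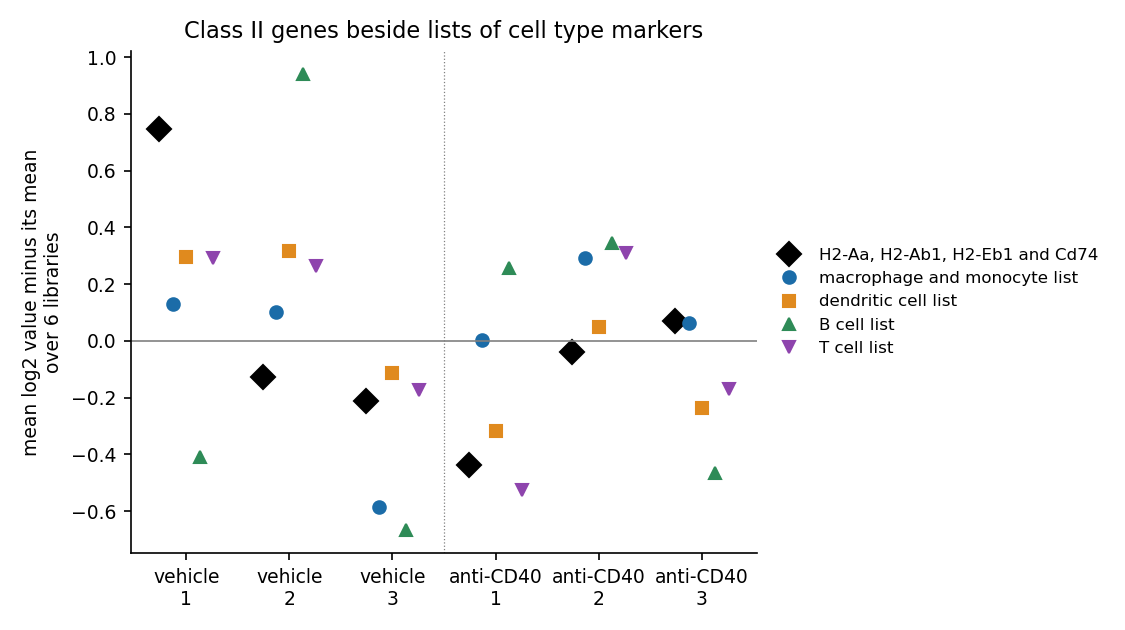
Mean log2 value of H2-Aa, H2-Ab1, H2-Eb1 and Cd74 (black diamonds) and of 4 lists of cell type markers in each library, each minus its own mean over the 6 libraries. The class II genes are highest in vehicle 1, the B cell list in vehicle 2 and the macrophage list in anti-CD40 2. The dendritic cell list is nearly level in vehicle 1 and 2 (mean log2 values 6.99 and 7.01). So is the T cell list in vehicle 1, vehicle 2 and anti-CD40 2 (6.59, 6.56 and 6.60). The squamous epithelium and carcinoma list is not drawn.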

How the data were processed

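Expression was measured in 3 vehicle and 3 anti-CD40 tumour samples, and the groups and replicate numbers were taken from the sample titles. The deposited table holds log2 normalized counts, per its name, for 770 genes, 6 positive and 8 negative controls. For platform, counting software, normalization and genome build, nothing was given in the sources used here. The authors' values could be turned back into counts: 2 to the power of a log2 value, less 4.55 and divided by a factor of its library (1.72 to 3.28), gave a whole number to within 0.05 for 4704 of 4704 values. Near background the offset therefore shrinks differences, and unequal factors can separate libraries by scaling alone.

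Groups were compared with limma 3.58.1 in R 4.3.3 (lmFit, eBayes) two-sided on the deposited values, and p-values were adjusted over all 770 genes by Benjamini-Hochberg; an exact permutation test of 3 against 3 cannot go below p = 0.1. The procedure was tested on simulated data with planted changes larger than any member's difference. That test therefore does not show whether differences of the members' size would be called. Python 3.11.15, pandas 2.3.3, scipy 1.17.1 and matplotlib 3.10.9 served for the rest. Members, gene lists and the rule for other named genes (the 5 nearest in pattern, and from the lists Ctsl, Ifng, Irf1 and another gene that is not reported here) were chosen with earlier results of these data known. Other genes named were picked after their values were seen. Replicate pairs differed far beyond counting noise (chi-square per degree of freedom 64.2 to 121), and each library entered as its own sample. The labels number both groups 1 to 3, and the main fit did not take the numbers as pairs. Correlations of deviations were −0.43, 0.069 and 0.28 between equal numbers and from −0.56 to 0.48 between unequal ones. With so wide a range between unequal numbers, they cannot show whether the numbers are pairs. Alternatives covered scaling, filters, offset, background, limma-voom, a replicate block and leaving out each library.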

Additional observations from a re-analysis of the deposited data

How the results depend on the processing

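In 16 alternative settings 0 genes were called, with 13 to 52 genes at an unadjusted p under 0.05. All 10 members stayed lower in anti-CD40 tumours in 15 of them, among them 3 other scalings and limma-voom. Median differences in these ran from −0.54 (without vehicle 3) to −0.15 (without anti-CD40 1). The other eBayes prior, the background filters and the replicate block could change p-values but not a member's difference. Their median of −0.27 and its direction were thus fixed in advance. With the replicate block 0 genes were called, as without it. Without vehicle 1 the direction turned for H2-Aa (0.25), H2-DMa (0.10), H2-DMb2 (0.024), Cd74 (0.035) and Ctss (0.12), whose values at the other end of the range with 1 library left out were −0.41, −0.31, −0.74, −0.50 and −0.47. Leaving out 1 library gave medians from −0.54 to −0.023 and 0 calls throughout. Quantile normalization moved the median of all genes from 0.038 to −0.0072 and that of the members to −0.35. Low counts limit Ciita and H2-Ob, whose differences were −1.12 and −0.73 after background subtraction.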
